A study of Arabidopsis thaliana with 26 samples.

Results

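Long adenosine tails were followed on degradation intermediates of the rRNA precursor's leader, known as the 5′ external transcribed spacer (5′ ETS), in *Arabidopsis* rosette leaves. A read was taken as a member when the nucleotides added after its last encoded nucleotide numbered 6 to 30 and were all A. This rule selected 7080 of 224354 reads, or 3.16%, in 26 libraries of 13 genotypes with 2 biological replicates each. The tail's own sequence and length chose the members, so that their composition is no finding, and neither is the lower limit of their length. The limit fell within a smooth decline, with 1420 pure A tails of 5 nt just outside it and 1220 of 6 nt just inside it.

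In *Arabidopsis*, the P-P′ fragment cut out of the 5′ ETS is degraded from its 3′ end by the RNA exosome, which removes rRNA maturation by-products in other eukaryotes as well. Short A tails added by nucleotidyltransferases of the TRAMP type give the exosome an unstructured end to start from. The *Arabidopsis* core, Exo9, degrades RNA with phosphate through its subunit RRP41, whereas its partners RRP6L2 and RRP44 use water. MTR4 is the RNA helicase that serves the exosome in the nucleolus.

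Active Exo9 was provided by endogenous RRP41 or by an RRP41WT transgene in the *rrp41* null mutant. Exo9 was inactive in *rrp41* plants with RRP41Pi-, whose phosphate site is altered, or with RRP41Pi-Cat-, in which a residue that binds magnesium is altered as well. These were studied in 4 backgrounds. The Col-0 background comprised Col-0, *rrp41* RRP41WT, *rrp41* RRP41Pi- and *rrp41* RRP41Pi-Cat-. The *rrp6L2*, *RRP44KD rrp6L2* and *mtr4* backgrounds each comprised the mutant itself, the mutant with *rrp41* RRP41WT and the mutant with *rrp41* RRP41Pi-Cat-. All plants were of accession Col-0, the transgenes were myc- or GFP-tagged and driven by the *RRP41* promoter, *rrp6L2* and *mtr4* are T-DNA insertion lines, and RRP44KD is an artificial miRNA against RRP44 under the mesophyll-specific CAB3 promoter in lines selected by their P-P′ accumulation. Each library came from a pool of 5 to 10 plants, 6 weeks old, and the replicates are plants of one genotype grown at different times. The read number ranged from 1621 to 23152 with a median of 7592, and the smallest libraries belonged to the Col-0 background. There, the 4 libraries with active Exo9 held 114 members and the 4 with inactive Exo9 held 88.

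The number of a 3′ end is its distance in nt from processing site P, where the P-P′ fragment starts, so that P161 names the last encoded nucleotide and not the length with the tail. The first 200 nt of the reference matched the TAIR10.1 assembly once, on the plus strand of chromosome 3 at chr3:14197115-14197314, upstream of the 18S rRNA gene AT3G41768 at chr3:14197677-14199484. Since the reference is a repeat unit, this places its sequence in the assembly and not the gene copy that a read came from. Members lay within 61 ends from P140 to P200 in 98.0% of cases (6939 reads), and the other 141 were spread from P22 to P481. The stretch from P140 to P192 (chr3:14197254-14197306) is shown first, because it decides where an A tail can be seen at all. Its capitals mark the last nucleotide of the ends at which a pure A tail of at least 2 nt can be recorded.
P140 to P192: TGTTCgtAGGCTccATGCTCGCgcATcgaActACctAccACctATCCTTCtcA

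An end followed by an encoded A carried no pure A tail of any length, because the first added A matches the reference and is read as encoded. Such a tail is recorded at the last A of the run, so that those of P167 and P168 appear at P169 and those of P175 at P176, shorter by the encoded As. An end whose second following base is A carried single added As (8593 reads) but no pure A tail of at least 2 nt. The authors removed reads whose second tail nucleotide matched the reference, and these ends, P162, P166, P170, P174 and P177 among them, held 51609 reads in all. Of the 61 ends, 13 belonged to the former kind and 11 to the latter, and the other 37 each held at least 1 member. Ends whose last base is A held 51.8% of the members (3665 reads).

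The following are the most frequent member reads at the 7 ends on which the results turn, with the last 20 encoded nucleotides in lower case and the added tail in capitals, and then one of the longest. They show how the same tail follows very different 3′ ends, and that at P169, P172 and P176 the border between spacer and tail is a convention.
P160: gttcgtaggctccatgctcgAAAAAAA
P161: ttcgtaggctccatgctcgcAAAAAAA
P165: taggctccatgctcgcgcatAAAAAA
P169: ctccatgctcgcgcatcgaaAAAAAA
P172: catgctcgcgcatcgaactaAAAAAA
P176: ctcgcgcatcgaactacctaAAAAAA
P186: gaactacctaccacctatccAAAAAAAAA
P160, longest: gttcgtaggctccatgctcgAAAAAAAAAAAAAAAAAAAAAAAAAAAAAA

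The mean share of reads with a long A tail was lowest in the Col-0 background, and none of the tested differences between backgrounds passed the threshold after adjustment. With active Exo9, they made up 0.491% ± 0.188 (SD, n = 4) of reads in the Col-0 background, 2.31% ± 1.51 in *rrp6L2*, 4.70% ± 1.05 in *RRP44KD rrp6L2* and 2.49% ± 0.621 in *mtr4*. In Col-0 the replicates were at 0.341% (95% Wilson interval 0.251 to 0.464) and 0.490% (0.248 to 0.963), and in *rrp41* RRP41WT at 0.757% and 0.378%. The intervals cover counting error only. With 4 against 4 libraries the exact permutation p cannot fall below 0.0286. Even groups without overlap could thus pass after adjustment only if most of the 7 comparisons reached that value. The *RRP44KD rrp6L2* mean was 9.57 times that of the Col-0 background, a comparison that was not among those tested.

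In *rrp6L2* the replicates were at 2.78% and 0.775%, and in *rrp6L2 rrp41* RRP41WT at 4.21% and 1.497%. The mean was 4.71 times that of the Col-0 background, and the groups did not overlap, although the lowest *rrp6L2* library (0.775%) lay close to the highest of Col-0 (0.757%). The difference of 1.82 percentage points had p = 0.0286 in a two-sided exact permutation test, the smallest that 4 against 4 libraries allow, and 0.10 after Benjamini-Hochberg adjustment over the 7 comparisons of this share. With any one of the 4 Col-0 background libraries left out, p ranged from 0.0571 to 0.114.

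In *RRP44KD rrp6L2* the replicates were at 5.03% and 3.81%, and with RRP41WT at 6.05% and 3.92%. The mean was 2.03 times that of *rrp6L2*, but the groups overlapped, and the difference of 2.39 points did not pass the threshold (exact permutation p = 0.0857, adjusted p = 0.20). Without the first replicate of *rrp6L2 rrp41* RRP41WT it was 3.02 points with p = 0.0286 in the same exact test. When ends whose last base is A were left out, the difference was −0.22 points (p = 0.857, same exact test), so that the higher share in *RRP44KD rrp6L2* was carried by those ends, P169 and P172 among them.

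In *mtr4* the replicates were at 2.06% and 2.37%, and with RRP41WT at 2.13% and 3.40%, all above the highest Col-0 background library. The mean was 5.07 times that of the Col-0 background (difference 2.00 points, exact permutation p = 0.0286, adjusted p = 0.10), with the same Col-0 background libraries as in the comparison with *rrp6L2*. It differed from *rrp6L2* by 0.177 points, less than the spread between libraries (exact permutation p = 0.83). Libraries with RRP41WT held a higher mean share than those with endogenous RRP41 in all 4 backgrounds, by 0.585 points on average, which did not pass the threshold (exact permutation p = 0.244 over 16 libraries, adjusted p = 0.341).

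**Figure D1:**
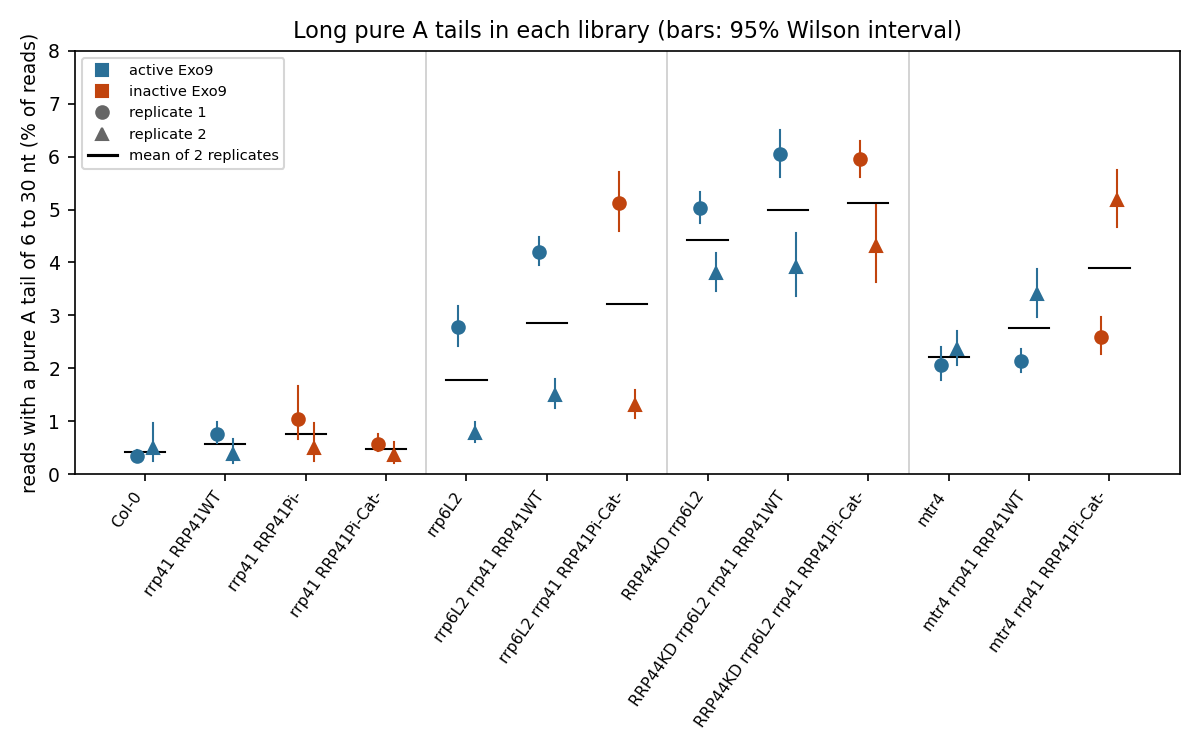
Percentage of reads with a pure A tail of 6 to 30 nt (vertical axis) in each of the 26 libraries, by genotype; circles are replicate 1, triangles replicate 2, short black lines the mean of both, and vertical bars 95% Wilson intervals. The Col-0 background stays between 0.341% and 1.05%, and in the *rrp6L2* background replicate 1 lies far above replicate 2 in all 3 genotypes.

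The share with inactive Exo9 did not pass the test against active Exo9. Averaged over the 4 backgrounds, it was 0.713 points higher with inactive Exo9 (10 libraries against 16), with the same sign in all 4 backgrounds but not beyond the spread between libraries (exact permutation p = 0.168 with labels permuted within background, adjusted p = 0.294). As a share of reads at ends that can record a pure A tail of at least 2 nt, a denominator chosen after seeing the data, the difference was 1.16 points (p = 0.0986, same exact test), and 0.345 points in the Col-0 background. In the Col-0 background the means were 0.619% ± 0.2997 and 0.491% ± 0.188 (SD, n = 4 each), a difference of 0.128 points (exact permutation p = 0.571), which was −0.015 points without *rrp41* RRP41Pi- replicate 1. In the other backgrounds RRP41Pi-Cat- libraries stood at 5.13% and 1.30% (*rrp6L2*), 5.95% and 4.31% (*RRP44KD rrp6L2*) and 2.60% and 5.18% (*mtr4*). In each background at least 1 of them lay within the range of the 4 active libraries, and the higher one of *rrp6L2* and of *mtr4* lay above all 4. Without the second replicate of *rrp6L2 rrp41* RRP41Pi-Cat- the difference was 1.19 points with p = 0.0301 in the same exact test, without the first 0.235 points (p = 0.678), and without the second *mtr4 rrp41* RRP41Pi-Cat- replicate 0.39 points (p = 0.417). With labels also kept within replicate number, the difference of 0.713 points had an exact permutation p of 0.0069, before adjustment.

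In the *rrp6L2* background, replicate 1 held 2.81 to 3.94 times the share of replicate 2, and their Wilson intervals did not overlap in any of the 3 genotypes. Replicate 1 was also higher in the 3 genotypes of the *RRP44KD rrp6L2* background and lower in the 3 of the *mtr4* background. Growth time and replicate cannot be told apart.

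Shorter A tails behaved differently. The paper cautions that part of the single mismatched nucleotides may be sequence polymorphisms and not additions. Single added As had a pooled mean of 8.58% of reads with active and 4.26% with inactive Exo9. For pure A tails of 2 nt these were 1.41% and 0.874%. Averaged over backgrounds, the differences were −3.46 and −0.358 points, with the same sign in all 4. In *RRP44KD rrp6L2* single As stood at 11.8% and 11.1% and tails of 2 nt at 2.56% and 2.30%. In the Col-0 background single As stood at 4.91% and 0.785%. These 2 lengths were lower at an adjusted p below 0.05 among the 30 lengths tested (6.67% of lengths; exact permutation within background, Benjamini-Hochberg adjusted p = 0.000254 and 0.00895). They are not members, and the call at 2 nt was lost without *RRP44KD rrp6L2 rrp41* RRP41Pi-Cat- replicate 2 (adjusted p = 0.0568, same exact test) and among reads at recordable ends (0.053). Of the 25 member lengths none passed in either direction (0% of the 30 lengths were higher), and 4 of the 30 lengths, of 9, 10, 15 and 27 nt, were higher at an unadjusted p below 0.05. Tails of 5 nt differed by 0.0378 points (adjusted p = 0.891) and of 6 nt by 0.058 points (adjusted p = 0.681), in the same exact test. With labels also kept within replicate number, the member lengths of 10 and 12 nt were higher with inactive Exo9 (exact permutation, adjusted p = 0.0226 each).

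The long class took a larger part of all pure A tails of at least 2 nt when Exo9 was inactive. The mean was 52.3% ± 12.1 (SD, n = 10) with inactive and 38.4% ± 9.14 (n = 16) with active Exo9. The difference, averaged over backgrounds, was 13.4 points, with the same sign in all 4 (exact permutation p = 0.00204, adjusted over 4 measures 0.00408). It was 25.8 points in the Col-0 background, where Col-0 had 19.4% and 28.6%, *rrp41* RRP41WT 36.5% and 28.6%, *rrp41* RRP41Pi- 56.7% and 33.3% and *rrp41* RRP41Pi-Cat- 65.3% and 60.9%. In *rrp6L2* it was 8.88 points, with RRP41Pi-Cat- libraries at 62.8% and 36.3% and the 4 active ones at 29.2% to 51.2%. It was 3.39 points in *RRP44KD rrp6L2* and 15.5 points in *mtr4*, where both RRP41Pi-Cat- libraries (60.1% and 61.7%) exceeded all 4 active ones (43.9% to 47.1%).

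The length of the members themselves changed little. Their mean length per library ranged from 8.44 to 11.1 nt, and the median from 8 to 10 nt. With inactive Exo9 the mean was 0.282 nt longer, within the spread between libraries (exact permutation p = 0.264). Members of at least 10 nt numbered 2910 (41.1%), and those of at least 20 nt numbered 214 (3.02%). The longest, of 30 nt, are 5 reads, 4 from *RRP44KD rrp6L2* and 1 from *rrp6L2 rrp41* RRP41WT. The tail of 30 nt is also the upper limit of the trimming, so that longer tails would not have been recorded. The 3 libraries of replicate 1 in the *rrp6L2* background had 5.37%, 6.16% and 7.42% of members from 20 nt on, and no other library exceeded 3.70%.

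At each length from 2 to 16 nt, between 77.5% and 83.3% of the pure A tails that reached it were longer still. For single As this percentage was 46.5%, but 8593 of the 18400 single As lay at ends where longer pure A tails were removed. It is therefore not comparable with the percentages at greater lengths. Pooled over all libraries, the most frequent length among the members was the shortest, 6 nt. This held in 12 of 26 libraries taken singly, among them all 6 of the *RRP44KD rrp6L2* background, and in the other 14 it was 7, 8 or 9 nt.

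**Figure D2:**
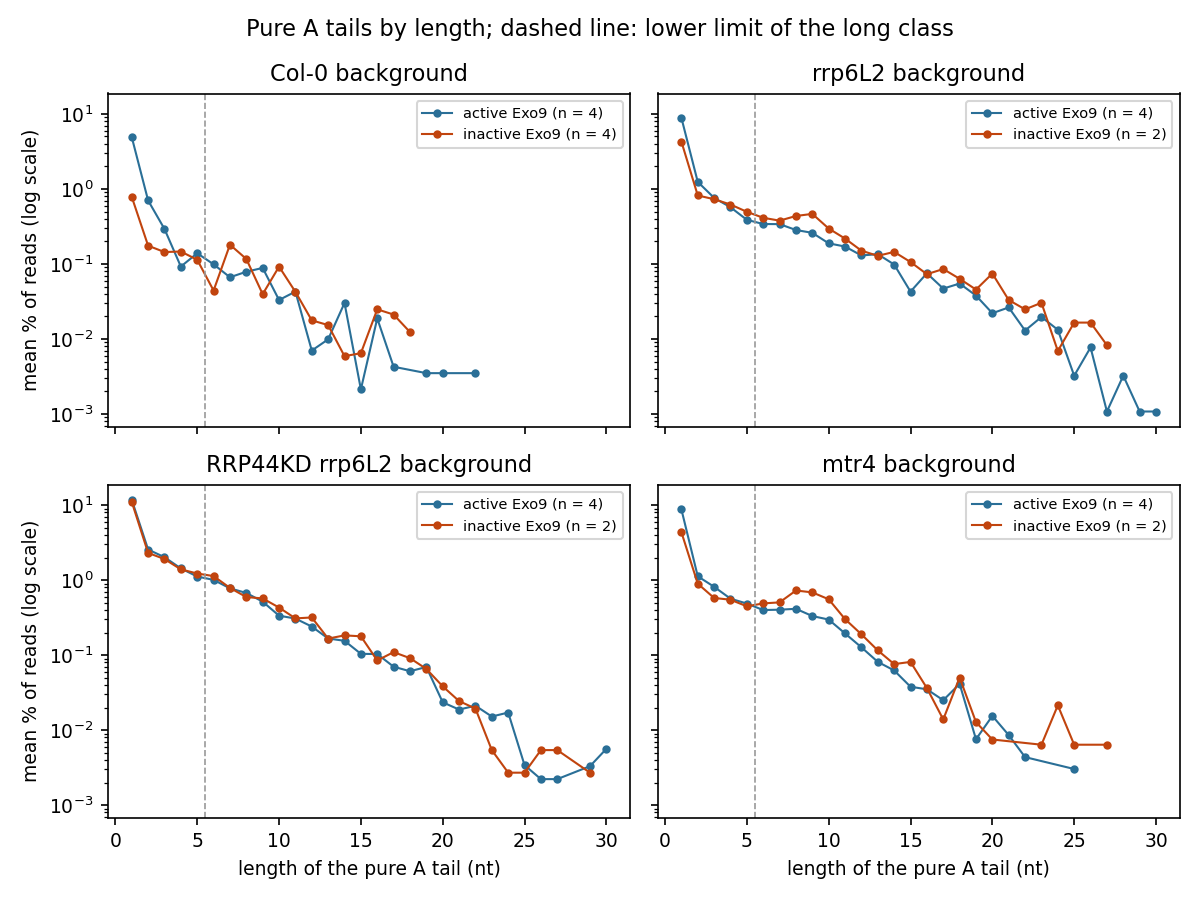
Mean percentage of reads (vertical axis, log scale) with a pure A tail of each length from 1 to 30 nt (horizontal axis), in the 4 backgrounds, for active (blue) and inactive Exo9 (orange); lengths with no read in a group are left out. The dashed line is the lower limit of the long class. Single As are fewer with inactive Exo9 in all 4 backgrounds, least so in *RRP44KD rrp6L2* (11.8% and 11.1%), while the curves beyond the line lie close together.

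The 5 ends with the highest mean share of a library's members were P169 (16.1% ± 16.6, SD, n = 26), P160 (10.9% ± 9.76), P172 (8.18% ± 8.77), P176 (7.06% ± 5.29) and P161 (6.78% ± 6.45). The spread was wide, and the leading ends differed between backgrounds. In the *RRP44KD rrp6L2* background P169 held 30.1% to 49.3% of the members in all 6 libraries. In the other 20 libraries it held 0% to 24.8%, apart from 50% in *rrp41* RRP41Pi- replicate 2, which are 4 of 8 members. As a share of all reads, members at P169 stood at 1.35% to 2.93% in the 6 *RRP44KD rrp6L2* background libraries and at 0% to 1.27% elsewhere. In that background 1404 of 6872 reads at P169 carried a long A tail, and in single libraries 15.1% to 23.4%. These members include tails of P167 and P168, but the reads recorded at those ends (1674 at P168) are not among the 6872. The percentages are therefore no rate of P169 alone. P172 held a further 15.4% to 29.1% of the members there.

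In the Col-0 background with active Exo9, 53.1% ± 9.80 (SD, n = 4) of members lay from P157 to P165, and none at P164 or P165. P160 was the leading end, with 23 of 114 members. P168, the other main intermediate, can hold no member by the limits given above, so nothing can be read from its zero.

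The ends that carried long A tails differed with the state of Exo9. Of 18 ends with at least 50 members, 9 were higher (50% of ends) and 3 lower (16.7%) with inactive Exo9, as a share of all reads (exact permutation within background, Benjamini-Hochberg adjusted p below 0.05). The ends were selected by their members, so these percentages describe the members alone. The 5 largest of these differences were at P169, P165, P186, P164 and P161. The minimum of 50 members was on the total over all libraries. P165 met it only through the inactive libraries (268 members, against 35 in the active ones). P161 met it only through the active libraries (469 members, against 36), as did P157.

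At P161, a main intermediate of plants with active Exo9, members fell from a mean of 0.223% to 0.0469% of reads (difference −0.18 points, adjusted p = 0.0298, exact permutation). Without either replicate of *rrp6L2 rrp41* RRP41Pi-Cat- this call was lost (adjusted p = 0.068 and 0.0649, same exact test). In the *rrp6L2* background they were 222 reads in the 4 active libraries and 1 read in the 2 inactive ones, and in *RRP44KD rrp6L2* 141 and 13. In the Col-0 background the share of reads did not fall (12 members with active and 11 with inactive Exo9). Their share of a library's members was 8.76% with active and 3.60% with inactive Exo9, and the difference averaged over backgrounds was −6.14 points (exact permutation p = 0.0139, adjusted p = 0.0186), with the same sign in 3 of 4 backgrounds. Without the *rrp6L2* background it was −3.70 points with p = 0.149 in the same exact test, and without *mtr4* −5.36 points with p = 0.0829. Reads at P161 without a tail were also fewer with inactive Exo9. In *rrp6L2 rrp41* RRP41Pi-Cat- they were 0.149% and 0.125% of reads, against 2.94% to 6.34% in the active *rrp6L2* libraries. Per read at P161, members were 0.276% with active and 12.2% with inactive Exo9 in the Col-0 background, where the latter held 58 reads. In *mtr4* they were 4.94% and 8.95%, in *rrp6L2* 4.42% and 3.33% and in *RRP44KD rrp6L2* 5.69% and 2.86%. None of these values per read was tested.

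At P176 members fell from 0.256% to 0.104% of reads (adjusted p = 0.00279, exact permutation), lower in all 4 backgrounds. Their share of a library's members was 9.43% with active and 3.25% with inactive Exo9 (difference over backgrounds −5.82 points, exact permutation p = 0.00102, adjusted p = 0.00406). Reads at P176 without a tail were also few with inactive Exo9, with 0.512% and 0.436% of reads in *mtr4 rrp41* RRP41Pi-Cat- against 6.94% to 10.2% in the active *mtr4* libraries. Per read at P176, 2.36% ± 0.491 (SD, n = 4) carried a long A tail in *mtr4* with active Exo9, and 12.7% ± 5.24 (n = 2) with inactive Exo9. In *rrp6L2* these were 1.91% ± 0.853 and 7.48% ± 4.89, with only 213 reads at P176 in the 2 inactive libraries. In *RRP44KD rrp6L2*, which held the most reads at P176, they were 4.01% ± 0.891 and 5.01% ± 1.56, and in the Col-0 background 0.412% ± 0.724 and 1.14% ± 2.27 (n = 4 each). These values per read were not tested. Members at P176 include tails of P175, but the reads recorded at P175 are not among the reads at P176. The values are therefore no rate of P176 alone.

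P157 was the other lower end (difference −0.074 points, adjusted p = 0.0028, exact permutation). P160 had the largest difference toward lower values but fell short of the threshold (0.308% and 0.0637% of reads, difference −0.24 points, adjusted p = 0.0551, same exact test). That call depended on single libraries, since the adjusted p ranged from 0.033 to 0.166 with 1 of the 26 left out and stayed above the threshold in 14 cases. In *rrp6L2*, P160 held 388 members with active Exo9 and 7 with inactive Exo9.

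The opposite was seen at P164 and P165, just downstream of P161. Members at P165 rose from 0.0189% to 0.335% of reads (difference over backgrounds 0.393 points, adjusted p = 0.00114, exact permutation), higher in all 4 backgrounds. They were 2.02% and 0.263% of reads in the replicates of *rrp6L2 rrp41* RRP41Pi-Cat-, where 39.4% and 20.2% of members ended there, against at most 2.86% of members in the 16 active libraries. Without the first of these replicates the difference was 0.174 points, and without the second 0.612 points (adjusted p = 0.00267 each, same exact test). Reads at P165 without a tail rose too, to 3.64% and 3.03% of reads in these replicates, against 0.346% to 0.831% in the active *rrp6L2* libraries. Per read at P165, members were 15.6% ± 13.7 (SD, n = 2) and 2.28% ± 1.57 (n = 4) in the same libraries. These values were not tested. Members at P164, which include tails of P163, rose from 0.0304% to 0.192% of reads (adjusted p = 0.00133, same exact test). Members at P169 rose as well (0.477% and 0.738%, difference over backgrounds 0.423 points, adjusted p = 0.0123, same exact test), in all 4 backgrounds.

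**Figure D3:**
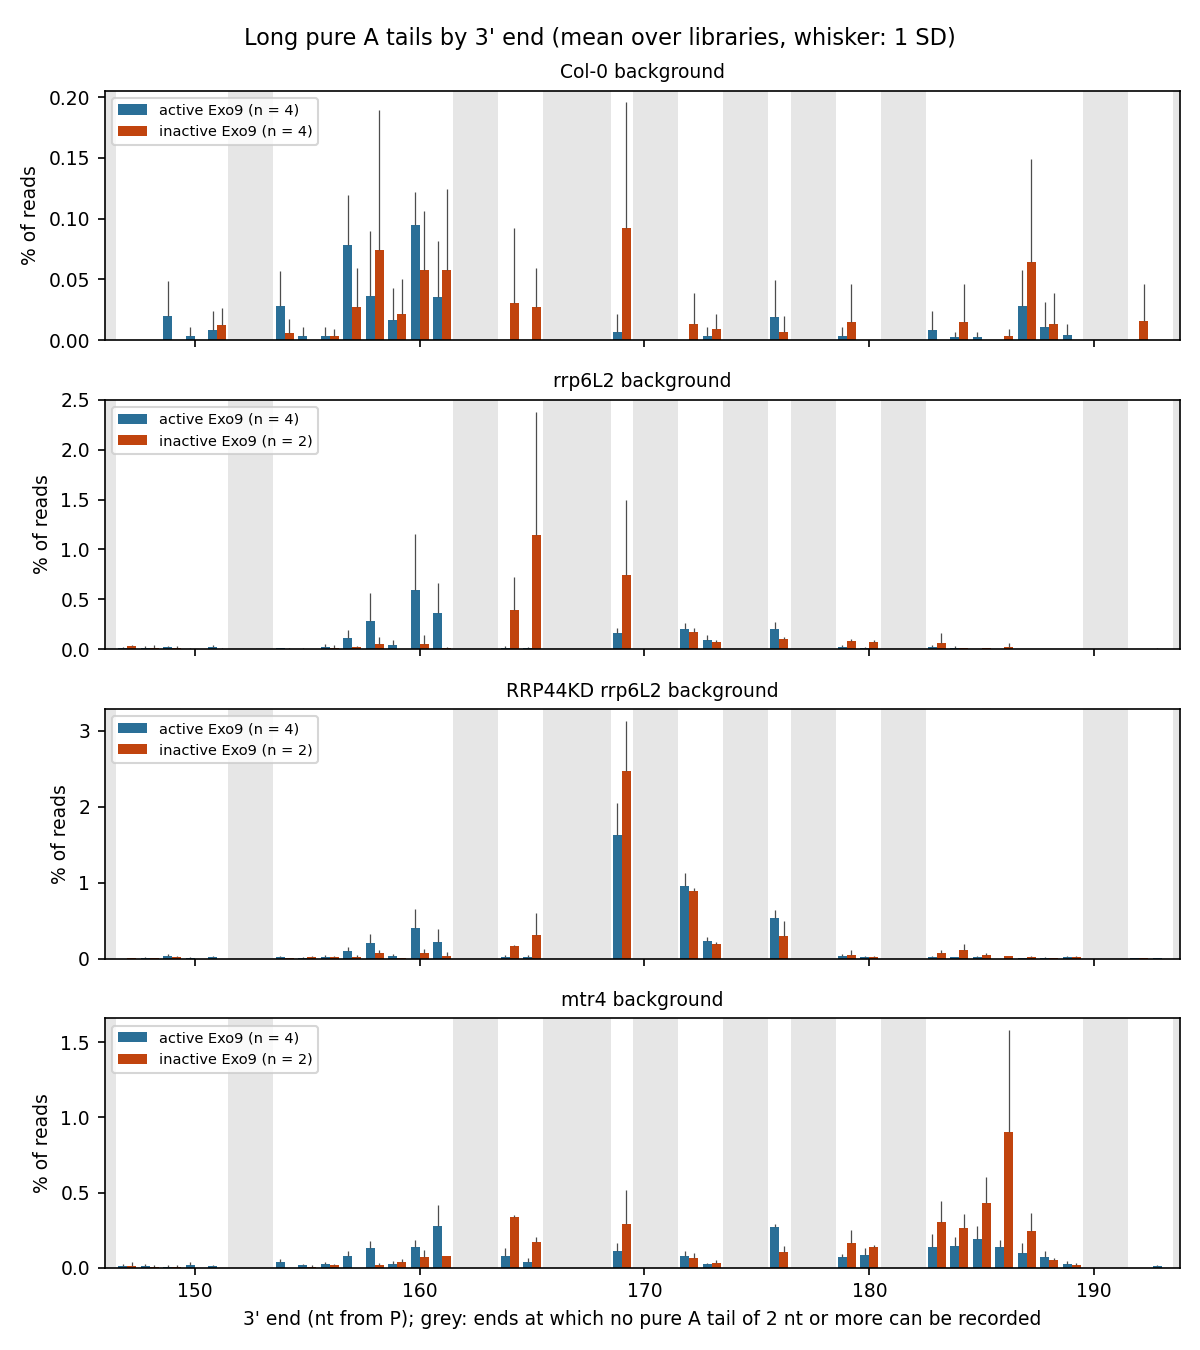
Mean percentage of reads (vertical axes, a separate scale for each panel) with a long pure A tail at each 3′ end from P147 to P193 (horizontal axis), in the 4 backgrounds, for active (blue) and inactive Exo9 (orange); whiskers are 1 SD over 4 or 2 libraries, and grey ends cannot hold a recorded pure A tail of at least 2 nt. P169 leads in *RRP44KD rrp6L2*, P165 in *rrp6L2* with inactive Exo9, and the stretch from P183 to P189 stands out in *mtr4* only.

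P186 is the longest of the main intermediates and was nearly free of long A tails, except in *mtr4*. Over genotype means, 1.18% ± 2.45 (SD, n = 13) of the reads at P186 carried one, against 5.40% ± 4.34 at P161 and 3.45% ± 3.46 at P176. P186 lay below the mean of the other two in 12 of 13 genotypes, all but *mtr4 rrp41* RRP41WT (difference −3.24 points, two-sided exact sign-flip permutation test over genotypes, p = 0.000732). From these same reads, the paper had reported additions only at P161 and P176 among the main intermediates of Col-0 and *rrp41* RRP41WT. The test is therefore no independent support, and it took genotypes that share a background as separate units. The highest value at P161, 17.3% in *rrp41* RRP41Pi-Cat-, rests on 26 and 5 reads, and the 7.14% in *rrp41* RRP41Pi- on 14 and 13. In Col-0 and *rrp41* RRP41WT, P161 was only at 0.165% and 0.387%, and P176 at 0% and 0.824%. Members at P176 include tails of P175. In the 12 libraries with active Exo9 outside *mtr4*, none of 7333 reads at P186 had a long A tail, which allows a share of up to 0.0409%. The 8 inactive libraries of these backgrounds held 9.

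In *mtr4*, by contrast, members at P186 were 2.81% and 2.28% of the reads there, in *mtr4 rrp41* RRP41WT 2.75% and 5.47%, and in *mtr4 rrp41* RRP41Pi-Cat- 2.84% and 13.5%. All 6 exceeded the highest other library (0.347%). This grouping was noticed in the values and was not tested. The rise at P186 with inactive Exo9 (adjusted p = 0.0028, exact permutation) rested on *mtr4*, where it was 0.765 points, against at most 0.0275 points in the other backgrounds. Without *mtr4 rrp41* RRP41Pi-Cat- replicate 2 the difference over backgrounds was 0.085 points, and without replicate 1 it was 0.325 points (adjusted p = 0.008 each, same exact test).

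The neighbours of P186 showed the same. From P183 to P189, the *mtr4* background held 619 members and the other 20 libraries 141. They were 30% and 25.6% of all members in *mtr4*, 36.6% and 35.7% in *mtr4 rrp41* RRP41WT, and 51.7% and 59.7% in *mtr4 rrp41* RRP41Pi-Cat-. The highest other values were 25% in 2 small Col-0 background libraries with 3 of 12 and 2 of 8 members. Per read from P183 to P189, 5.79% to 17.8% carried a long A tail in *mtr4* background libraries and 0% to 2.04% elsewhere. Outside the *mtr4* background, P186 held 13734 of the 23145 reads of this stretch but few of its members. Its neighbours were therefore less free of long A tails there than P186 itself.

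**Figure D4:**
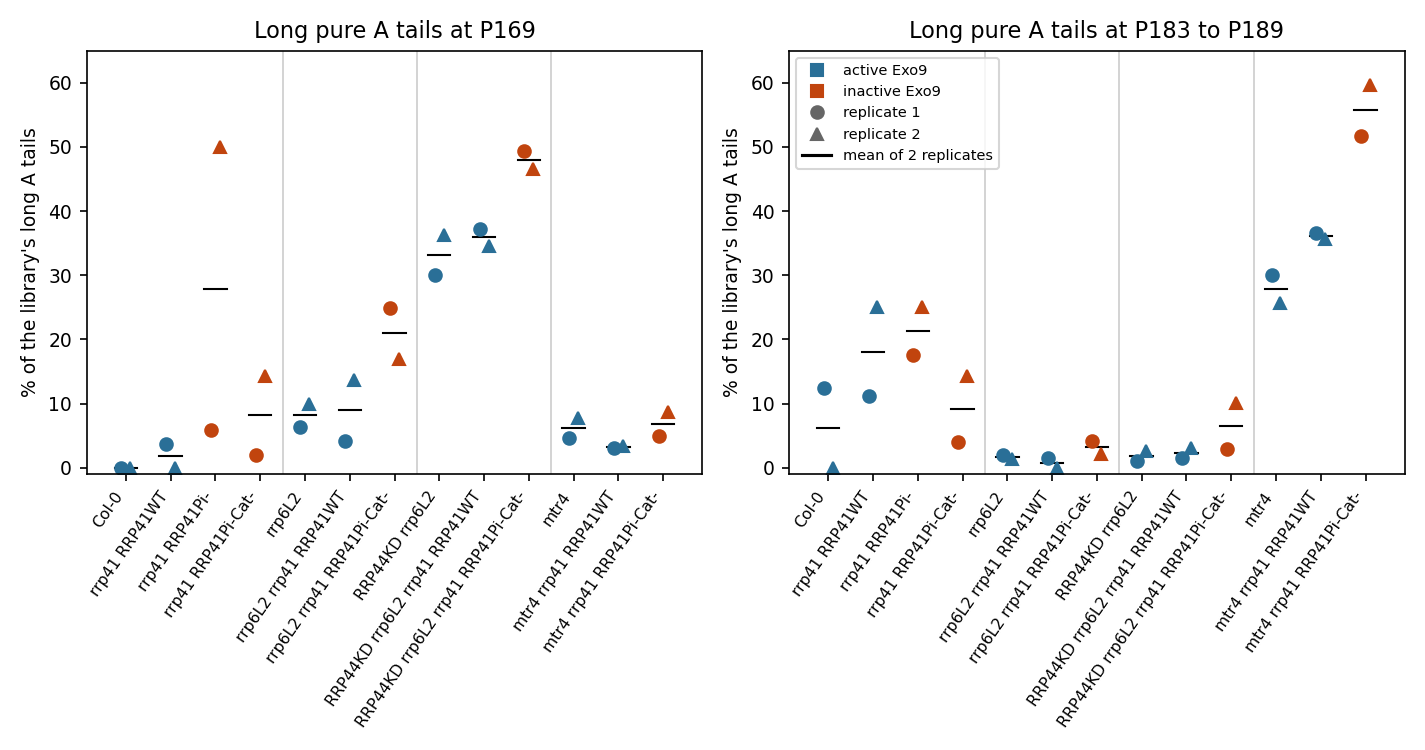
Percentage of each library's long A tails (vertical axes) that lie at P169 (left) and from P183 to P189 (right), by genotype; circles are replicate 1, triangles replicate 2, short lines the mean of both, blue active and orange inactive Exo9. The *RRP44KD rrp6L2* background holds 30.1% to 49.3% at P169 and the *mtr4* background 25.6% to 59.7% from P183 to P189, and the high point at P169 in *rrp41* RRP41Pi- is 4 of 8 reads.

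These tails also had a length of their own. Over all libraries, 84.4% of pure A tails of at least 2 nt from P183 to P189 were long (760 members and 141 shorter tails), against 55% from P157 to P165, 46.9% at P169, 27.9% at P172 and P173 and 30.03% at P176. Long tails outnumbered short ones there in 22 of the 24 libraries with any, and short ones outnumbered long ones in none. In the *mtr4* background the most frequent length from P183 to P189 was 9 nt (132 of 702 pure A tails of at least 2 nt), and 438 of them (62.4%) had 7 to 10 nt. In the other backgrounds it was 9 nt as well (26 of 199), and 39.2% had 7 to 10 nt. From P157 to P165 in the *mtr4* background the most frequent length was 2 nt, and 24.7% had 7 to 10 nt. No test was run, since the stretch was chosen after its values were seen.

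**Figure D5:**
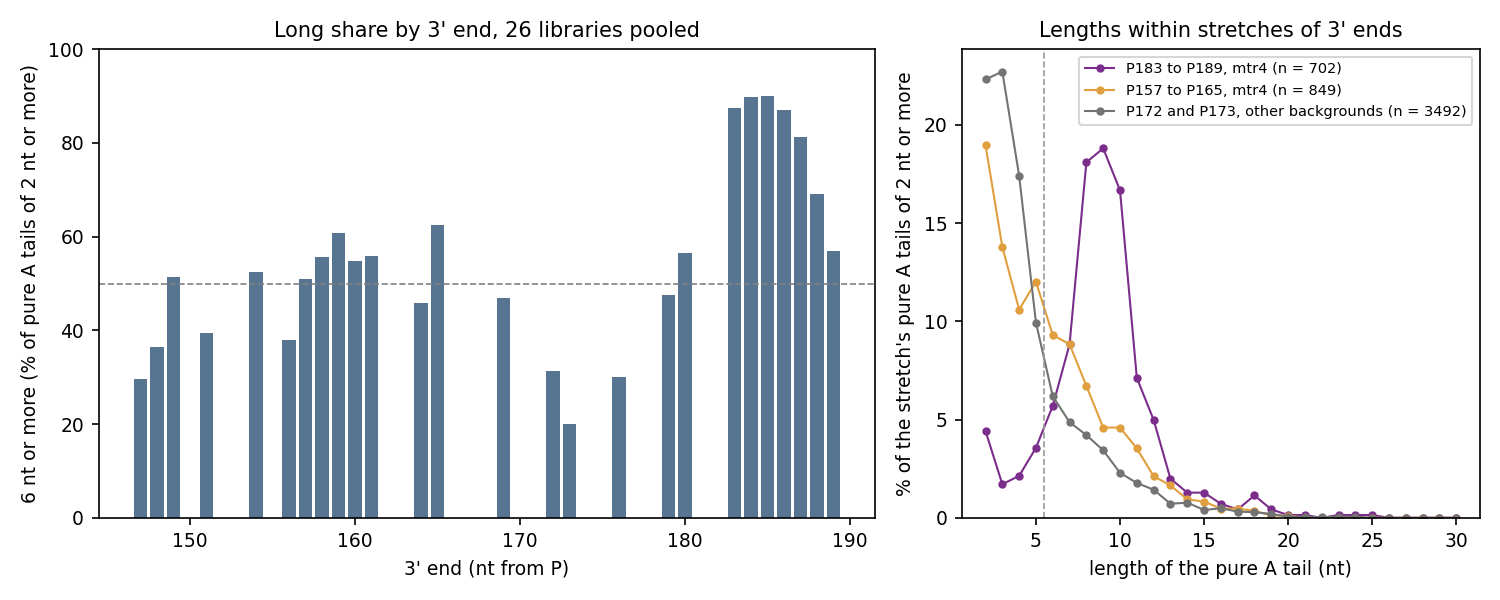
Left, percentage of pure A tails of at least 2 nt that are 6 nt or longer (vertical axis) at each 3′ end with at least 50 such tails (horizontal axis), all libraries pooled; the dashed line marks 50%. Right, length distribution (percentage of the pure A tails of at least 2 nt in a stretch against length in nt) for P183 to P189 in *mtr4*, which peaks at 9 nt, and for P157 to P165 in *mtr4* and P172 and P173 in the other backgrounds, which decline from 2 or 3 nt.

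In the *mtr4* background the most frequent tail was 10 nt at P183, 9 nt at P184, P185 and P186, 8 nt at P187, 7 nt at P188 and 6 nt, the lower limit, at P189 (5 of 14 members). The summed length of spacer and tail most often reached the position of P194, and 78.0% of these 619 members (483 reads) lay within 2 nt of it, with 71.7% to 86.3% in the 6 libraries taken singly. Elsewhere it was 55.3% of 141 members. Reads without a tail that end from P192 to P196 were few, 23 of 54134 in the *mtr4* background. The members' lower limit of 6 nt bounds this sum from below, at P189 most closely.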

How the data were processed

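The authors deposited one table of deduplicated 3′RACE-seq reads with, for each read, the position of the 3′ end (unit other than a count), the encoded sequence, the added nucleotides and their number, and no normalization. By their methods, a read 2 had to hold the adapter's delimiter, and reads were trimmed 1 nt at a time, up to 30 nt, until they matched the rRNA repeat. Tails whose second nucleotide matched the reference were removed, and longer tails needed stretches of AAA or TTT, which pure A tails always hold.

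Shares were computed per library and compared by two-sided exact permutation tests, within backgrounds where several were joined, with the mean of the within-background differences as the statistic. Scans were adjusted by Benjamini-Hochberg and tested on simulated data. The tools were scipy 1.17.1, pandas 2.3.3, numpy 2.4.6 and matplotlib 3.10.9 under Python 3.11.15. In all reads the last 20 encoded nucleotides match the reference. The ends named are P161, P168, P176 and P186, the 5 with the highest mean share of members and the 5 with the largest differences past the threshold, and the lengths named are 5, 6, the most frequent, the longest and those past the threshold. P157 and the stretch from P183 to P189 were chosen once their values were known. The members, ends and tests were chosen with earlier results of these data known. No column was left out. Light lasted 16 h a day per the labels (8 h dark) and 12 h by the methods. Alternatives were a minimum of 5, 8 or 10 nt, 1 other base, other reads or libraries, log2 shares and the replicate block.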

Additional observations from a re-analysis of the deposited data

Results flagged for a closer look

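In 30 sets of libraries compared within a group, 1 library lay far from the others in 2 cases, where chance gives about 1 in 20. Both are shares of long A tails at P176 in the Col-0 background and rest on very few reads. *rrp41* RRP41WT replicate 2 had 16.7% of its 12 members there, against 0% to 1.85% in the other 3 libraries with active Exo9. *rrp41* RRP41Pi-Cat- replicate 2 had 7.14% of its 14 members there, against 0% in the other 3 libraries with inactive Exo9.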

How the results depend on the processing

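For the share of long A tails with inactive minus active Exo9, reads that end from P157 with the reference base at the T137C site gave 1.04 points (exact p = 0.0439). Leaving out 1 library gave 0.235 to 1.19 points, and −0.015 to 0.216 points in the Col-0 background, where leaving out libraries under 2000 reads gave −0.022 points. The *rrp6L2* excess over Col-0 was 1.31 points with a minimum of 8 nt, 0.933 with 10 nt, 1.25 at ends not ending in A and 1.82 without libraries under 2000 reads, with exact p from 0.0571 to 0.114, and 1.19 to 2.34 with 1 library left out. *RRP44KD rrp6L2* minus *rrp6L2* was −0.22 points at ends not ending in A and 1.87 to 3.02 with 1 library left out. *mtr4* minus *rrp6L2* was −0.15 points with a minimum of 10 nt, −0.0104 at ends not ending in A and −0.34 to 0.807 with 1 library left out. *mtr4* minus Col-0 was 1.70 to 2.14 and RRP41WT minus endogenous RRP41 0.246 to 0.924 points with 1 library left out.

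The share of members at P161 was −5.03 points with the reference base at the T137C site (exact p = 0.150), and −3.70 and −5.36 points without the *rrp6L2* and *mtr4* backgrounds, both chosen after seeing the data. With 1 library left out it was −7.04 to −5.51, at P176 −6.33 to −4.81, the long share of pure A tails 10.1 to 16.7 points and the mean length 0.151 to 0.368 nt. The excess of P161 and P176 over P186 kept its side of the threshold in all 6 settings (−5.51 to −1.05 points). Among lengths, only 1 nt was called (1 length) among recordable ends, also chosen after seeing the data, where 2 nt was lost, and 1 to 3 with 1 library left out. Length 5 gave −0.0058 points with the reference base at the T137C site and −0.023 to 0.0986 with 1 library left out, and length 6 −0.00016 to 0.116. Among ends, 7 were called with the reference base at the T137C site, 5 without *mtr4* and 9 to 14 with 1 library left out.

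Replicate numbers were not treated as pairs, with a correlation above 0.1 in 34 of 78 genotype pairs (median 0.0214). Within a background it was above 0.1 in 10 of 15 pairs (median 0.331), where a rule that every pair exceed it was not met. With the replicate block, exact p was 0.0069 for the 0.713 points with inactive Exo9 and 0.0234 for the 0.585 points with RRP41WT. For the 1.82 points of *rrp6L2* and the 2.00 points of *mtr4* over Col-0 it was 0.0556, the smallest it allows. The block called 4 lengths, against 2 without it, adding 10 and 12 nt, both higher with inactive Exo9 (adjusted exact p = 0.0226 each), and it called P160 (0.00137). The cause of these changes was not tested. Omitting libraries under 2000 reads removed none from the comparisons with *rrp6L2* other than that with Col-0, and P176 has no value at ends not ending in A. The libraries with the fewest members, 8 to 17 in the Col-0 background, limit what can be read there.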

Other observations

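Members took a larger part of all tails of at least 6 nt in *mtr4* than in Col-0. With active Exo9 they made up 59.5% ± 2.43 (SD, n = 4) of such tails in the *mtr4* background and 44.8% ± 3.03 (n = 4) in the Col-0 background, and the remaining tails held other nucleotides as well. No test was run.

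Reads carried either the reference base or another at 1 site of the spacer, T137C, whose position is counted from processing site P. Among reads that end from P157, where the site lies within the encoded nucleotides given, the variant base stood more often in members than in reads without a tail at the same ends in 22 of 26 libraries. The difference was 7.41 points ± 10.1 (SD, n = 26), and 5.27 points ± 5.13 in the 16 libraries with at least 100 members, with it higher in 14 of these 16. This comparison was chosen after seeing the data and was not tested.

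At ends that cannot hold a recorded pure A tail of at least 2 nt because such reads were removed, 14.4% to 39.4% of a library's reads were found, with a mean of 20.9% in the 16 active and 27.2% in the 10 inactive libraries. As a share of the remaining reads, members ranged from 0.40% to 8.30%.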
